A study of Zea mays with 6 samples.

Results

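The benzoxazinoid pathway genes of maize (Zea mays) were followed in shoots of a knockout line of Gβ (a subunit of the heterotrimeric G protein, which relays signals from cell-surface receptors) and in wild-type shoots. The genes were chosen from a fixed list of 10 identifiers of the maize genome annotation, each listed under a bx name, out of 44146 identifiers in the tables. Of the 10, 9 had values and all 9 passed the filter on low values (1 FPKM or more in 3 or more libraries). The identifier listed as bx13, Zm00001d007721, was not analysed here. The knockout group, titled KO1, carried the genotype label GBetaKO and the wild-type group the label WT, with 3 libraries each. Both groups were untreated seedlings at the 3-leaf stage, grown under normal conditions and sampled as bulk tissue without roots. The sources used here do not say how the knockout was made, which inbred line was used or whether a library pools plants, and the titles name a single knockout line. Whether a difference comes from the loss of Gβ or from something else in which that line differs cannot be told apart.

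Benzoxazinoids are indole-derived defence compounds of grasses that reach high levels in young maize seedlings and are stored as glucosides. BX1, a relative of the tryptophan synthase α subunit, splits indole-3-glycerol phosphate into free indole. The cytochrome P450 enzymes BX2, BX3, BX4 and BX5 then oxidise indole stepwise to the first benzoxazinoid, DIBOA. The glucosyltransferases BX8 and BX9 attach glucose, and BX7, an O-methyltransferase, completes the glucoside of DIMBOA, the main benzoxazinoid of young maize. BX13, a dioxygenase, and BX14, another O-methyltransferase, modify such glucosides further. The first 5 genes and the glucosyltransferases were taken as core steps, and bx7, bx13 and bx14 as late steps.

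The bx names come with the list, because the deposited tables hold identifiers only and 0 of their identifiers occur in the RefSeq gene table used here (assembly Zm-B73-REFERENCE-NAM-5.0). That table does hold all 10 names, and its order along the chromosomes was set beside the identifier numbers, which mostly follow the chromosomes in this annotation. The identifiers listed as bx3, bx4, bx5, bx1, bx2 and bx7 follow one another in that same order. The identifiers listed as bx8 and bx9 do not. The table places bx8 between bx5 and bx1 and places bx6, another gene of the pathway, ahead of bx3, whereas Zm00001d048634, listed as bx8, is numbered 68 below the identifier of bx3. It places bx9 and bx13 on different chromosomes, whereas Zm00001d007718, listed as bx9, is numbered only 3 below the identifier listed as bx13. These 2 members are therefore called by their identifiers, and no enzyme role is given to them. Either may belong to another step of the pathway, a late step included, so sets that count them as core hold for the list only. The table places bx14 ahead of bx13 on the same chromosome, and their listed identifiers are numbered in that order. No other listed name could be set beside bx14, so its name rests mainly on the list.

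Each library held 14738078 to 17626890 reads, as worked back from the FPKM values (fragments per kilobase of gene and per unit of library size). WT replicate 3 and KO1 replicate 2 lay furthest from their groups, with a root-mean-square departure of 0.575 and 0.405 log2 units over all tested genes, against 0.231 to 0.356 in the other libraries. The levels of Gβ itself and of tissue markers were not analysed here, since the identifiers are not paired with names. In bulk tissue, fewer cells of a type and less RNA per cell cannot be told apart.

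In KO1 shoots the transcripts of all 5 early genes, bx1 to bx5, fell, that of the late gene bx14 rose, and those of bx7 and of the 2 members of uncertain name did not pass the test. Of the 9 members 5 were called lower and 1 higher. The 1 called higher, bx14, passed the filter on low values through its KO1 libraries only. Among all 23232 genes tested 31.2% were called in either direction, 16.0% lower and 15.2% higher in KO1. Scaling by total reads tilted this background to 2891 lower and 4605 higher genes, against 3707 and 3531 as deposited, and left the members at 5 lower and 1 higher. The median log2 fold change was -1.56 for the 7 listed as core, which count both members of uncertain name, against 0.02 for all genes tested. For bx1 to bx5 alone it was -1.89. That subset was chosen after seeing the data and leaves out the 2 core members that were not called. The libraries of KO1 and WT did not overlap for 8 of the 9 members, as was the case for 49.4% of the genes tested. The test was limma's, run on log2(FPKM + 1) for all tested genes, and a gene was called at a Benjamini-Hochberg adjusted p below 0.05.

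**Figure D1:**
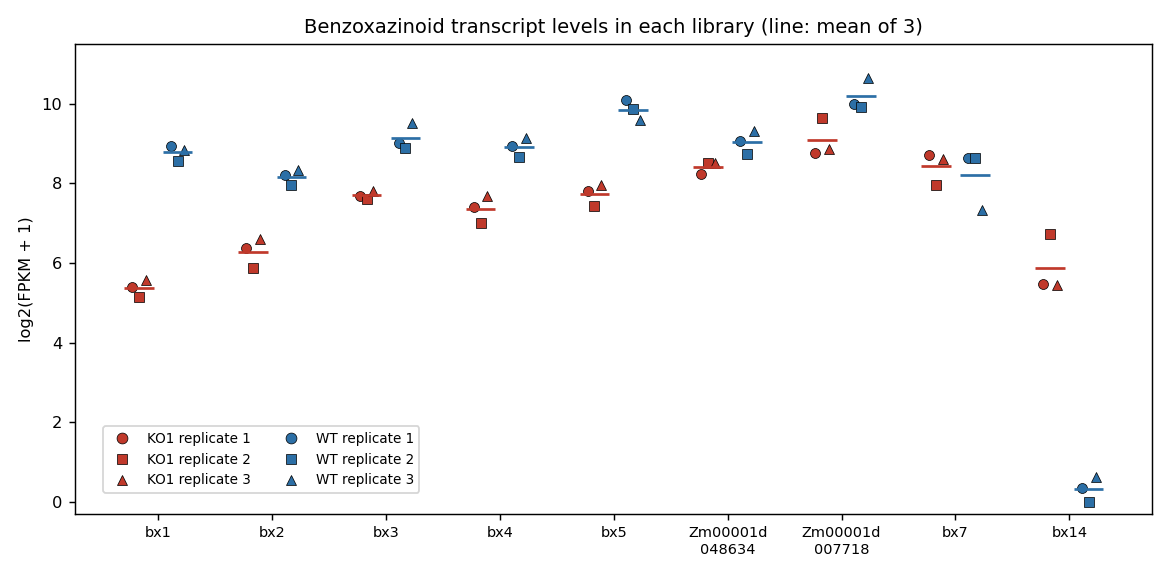
Level of each member as log2(FPKM + 1) in the 3 KO1 libraries (red, left) and the 3 WT libraries (blue, right), with a line at the mean of 3. The red points of bx1 to bx5 lie below all blue points, those of bx7 overlap them, and bx14 is near 0 in WT only.

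The gene of the first step, bx1 (Zm00001d048709), changed most among the members that fell. Its level was 41.2, 34.4 and 46.6 FPKM in KO1 replicates 1, 2 and 3, against 491, 376 and 454 FPKM in WT replicates 1, 2 and 3. The KO1 libraries differed little among themselves, and the highest of them lies far below the lowest WT library. The mean was 40.7 ± 6.10 FPKM in KO1 and 440 ± 59.0 FPKM in WT (SD, n = 3 each). The log2 fold change was -3.40 ± 0.22 (SE, limma adjusted p = 0.00027), a level 10.6 times lower with a 95% interval of 7.34 to 15.3. These values rest on 811 to 1266 reads per KO1 library and 8754 to 10517 reads per WT library. Of the 23232 tested genes, 110 had a log2 fold change as low as that of bx1 or lower, which is 0.473%. Ranked by FPKM within each library, bx1 stood between places 2183 and 3580 of the tested genes in KO1 and between places 134 and 222 in WT.

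The P450 genes followed in the same direction with smaller changes. For bx2 (Zm00001d048710), which makes the first oxidation of indole, the KO1 libraries had 81.5, 57.8 and 95.9 FPKM and the WT libraries 295, 247 and 322 FPKM. Its log2 fold change was -1.89 ± 0.26 (limma adjusted p = 0.0031), or 3.70 times lower. The lowest WT library was still well above the highest KO1 library.

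The gene bx3 (Zm00001d048702), for the next oxidation, had 203, 194 and 225 FPKM in KO1, against 515, 469 and 726 FPKM in WT. Its KO1 libraries differed little, while WT replicate 3 was higher than both other WT libraries. The log2 fold change was -1.43 ± 0.27 (limma adjusted p = 0.009), and with a replicate block the adjusted p was 0.0502, so that this call was lost. For bx4 (Zm00001d048703), which acts after BX3, KO1 had 168, 127 and 205 FPKM and WT had 493, 406 and 565 FPKM. Its log2 fold change was -1.56 ± 0.28 (SE), with a limma adjusted p of 0.008. The ranges of bx3 and bx4 overlapped within each genotype, with means of 207 and 167 FPKM in KO1 and 570 and 488 FPKM in WT. Within every single library, however, bx3 was higher than bx4.

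The last of the P450 genes, bx5 (Zm00001d048705), whose enzyme forms DIBOA, had 222, 172 and 249 FPKM in KO1, against 1083, 934 and 765 FPKM in WT. The groups were again well apart, and the log2 fold change was -2.11 ± 0.28 (limma adjusted p = 0.0027), or 4.32 times lower. In WT it was the most abundant of the 5 early transcripts, with ranks of 30 to 116 among the tested genes, and in KO1 its ranks were 276 to 480. WT replicate 3, the highest WT library for bx2, bx3 and bx4, was the lowest for bx5. Taking bx1 to bx5 as a sum, KO1 libraries had 716, 585 and 821 FPKM and WT libraries 2877, 2432 and 2832 FPKM. Their share of all FPKM was 0.135%, 0.0899% and 0.143% in KO1, against 0.434%, 0.407% and 0.330% in WT. The exact two-sided permutation test on this share gave p = 0.1, the smallest that 3 against 3 allows.

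**Figure D2:**
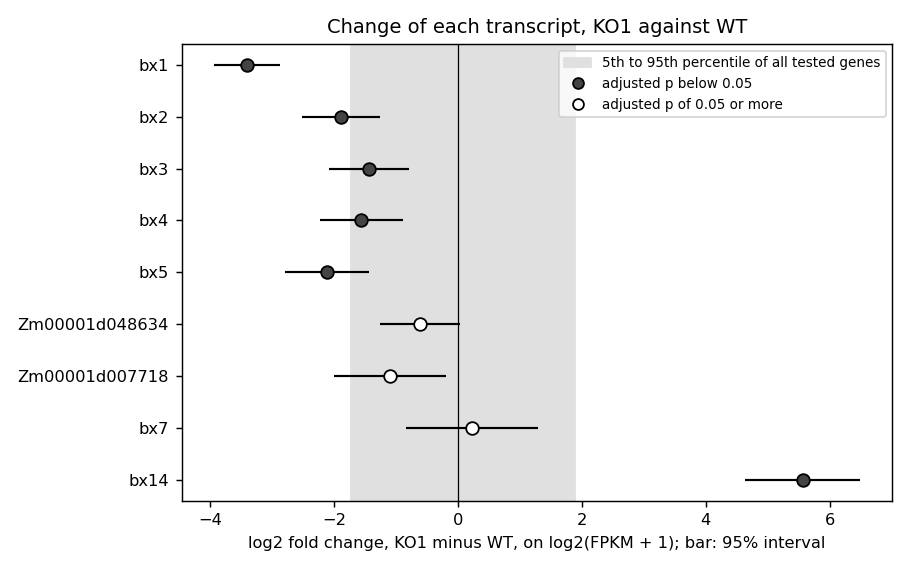
Log2 fold change of each member, KO1 minus WT, with its 95% interval; filled points passed the test. The grey band from -1.73 to 1.89 runs between the 5th and the 95th percentile of all tested genes, and bx1 and bx14 lie outside it with their whole intervals.

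Because bx1 fell further than the P450 genes, the balance between the transcripts differed between the genotypes. In KO1 libraries bx2 had 1.98, 1.68 and 2.06 times the FPKM of bx1, and in WT libraries 0.601, 0.657 and 0.710 times. The order of these 2 transcripts was thus opposite in the genotypes. For bx3 the ratio to bx1 was 4.93, 5.63 and 4.83 in KO1, against 1.05, 1.25 and 1.60 in WT. The ratio of bx4 to bx1 was 4.08, 3.69 and 4.39 in KO1, and 1.0, 1.08 and 1.24 in WT. For bx5 it was 5.39, 5.0 and 5.34 in KO1, and 2.20, 2.49 and 1.68 in WT. In every KO1 library each of these 4 ratios was higher than in every WT library, by 1.29 to 1.97 log2 units between the group means on log2(FPKM + 1), more than the spread between replicates (SD of at most 0.306). With 3 against 3 libraries the exact two-sided permutation p was 0.1 for each, the smallest that this number of libraries allows. It was 0.14 after adjustment over the 7 ratios computed. No ratio could have passed a threshold of 0.05 whatever its values, so the test cannot decide. The 4 ratios to bx1 share its values, so they restate its larger fall and are not 4 separate results. How often ratios of other genes separate the groups is not given here.

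**Figure D3:**
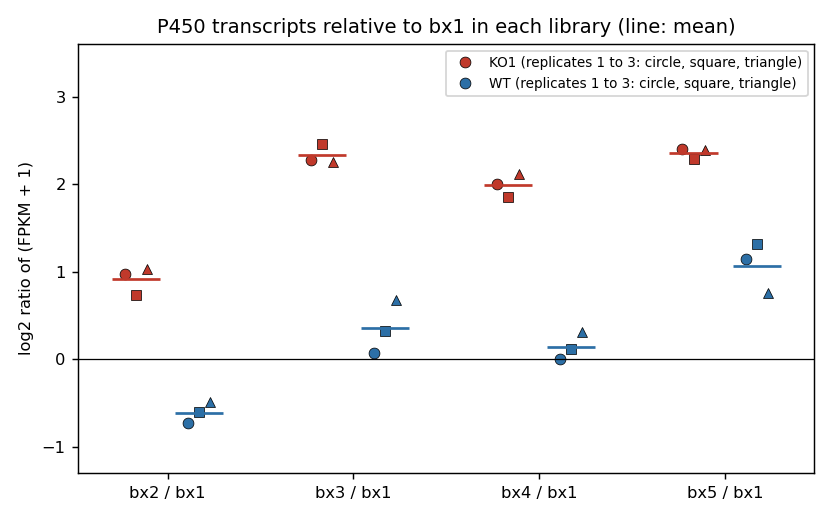
Log2 ratio of bx2, bx3, bx4 and bx5 to bx1, each as FPKM + 1, in KO1 (red, left) and WT (blue, right) libraries, with lines at the means. The KO1 means lie between 0.908 and 2.36 and the WT means between -0.61 and 1.07, without overlap of the libraries for any gene.

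The 2 members of uncertain name had lower means in KO1 but did not pass the test. Zm00001d048634, listed as bx8, had 302, 363 and 362 FPKM in KO1 and 534, 422 and 634 FPKM in WT. Every KO1 library was below every WT library, but the gap between the nearest libraries was small beside the spread within WT. Its log2 fold change was -0.61 ± 0.27 (limma adjusted p = 0.13, 95% interval -1.26 to 0.03). Zm00001d007718, listed as bx9, was the most abundant member by mean in both genotypes, at 435, 793 and 464 FPKM in KO1 and 1009, 970 and 1595 FPKM in WT. KO1 replicate 2 came close to the WT range, and the log2 fold change was -1.09 ± 0.38 (limma adjusted p = 0.071, 95% interval -2.00 to -0.19). Without KO1 replicate 2 it was -1.37 with a limma adjusted p of 0.0441. That library is the KO1 library nearest WT for this gene, so leaving it out favours a call by construction. Leaving out any other single library gave limma adjusted p of 0.0917 to 0.219. The ratio of Zm00001d007718 to Zm00001d048634 was 1.44, 2.18 and 1.28 in KO1 and 1.89, 2.30 and 2.52 in WT, and the libraries overlapped (exact permutation p = 0.2, adjusted over the 7 ratios 0.233).

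The late members behaved differently from each other. For bx7 (Zm00001d049179), the O-methyltransferase gene of the DIMBOA step, the KO1 libraries had 416, 248 and 391.8 FPKM and the WT libraries 395, 398 and 159 FPKM. The groups overlapped, and WT replicate 3 and KO1 replicate 2 were each the low library of their group. The log2 fold change was 0.23 ± 0.44 (limma adjusted p = 0.73) with a 95% interval of -0.84 to 1.30, which leaves room for a change in either direction. Without WT replicate 3 the value was -0.21, so WT replicate 3 decided its sign. Relative to Zm00001d048634, bx7 stood at 1.38, 0.683 and 1.08 in KO1 and at 0.741, 0.943 and 0.252 in WT (exact permutation p = 0.3, adjusted 0.3).

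The O-methyltransferase gene bx14 (Zm00001d004921) was the member that rose. It had 43.4, 105 and 42.7 FPKM in KO1, against 0.263, 0 and 0.549 FPKM in WT. The transcript was thus nearly missing from WT shoots and moderately abundant in KO1 shoots, with KO1 replicate 2 at 2.45 times the lowest KO1 library. The mean was 63.7 ± 35.7 FPKM in KO1 and 0.271 ± 0.275 FPKM in WT (SD, n = 3 each). On log2(FPKM + 1) the fold change was 5.56 ± 0.39 (SE, limma adjusted p = 0.00037), a value that depends on the pseudocount and ranged from 3.59 with a pseudocount of 5 to 8.57 with voom on reads. In reads, KO1 had 1154, 2196 and 1032 and WT had 5, 0 and 10. The ratio of pooled reads after scaling was 236 with a 95% counting interval of 143 to 422, which leaves out the spread between replicates. Of all tested genes, 40 had a log2 fold change at least as high, which is 0.172%. Only the KO1 libraries of bx14 reached 1 FPKM, so it entered the test through the group where it is high. Its call and this share are conditional on that. Without the filter on low values its log2 fold change was 5.56, with a limma adjusted p of 0.000728. Relative to bx7, bx14 stood at 0.104, 0.423 and 0.109 in KO1, and at no more than 0.00344 in WT (exact permutation p = 0.1, adjusted over the 7 ratios 0.14). Methyltransferase genes of this pathway are related in sequence, and reads shared with a related copy cannot be separated in these files.

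In the order of levels, per gene length, KO1 shoots had Zm00001d007718 first at 564 ± 199 FPKM, then bx7 at 352 ± 90.8 and Zm00001d048634 at 343 ± 35.0, whose libraries overlapped. There followed bx5, bx3 and bx4 with 214 ± 39.0, 207 ± 15.9 and 167 ± 38.9 FPKM, each overlapping the next. The lowest were bx2 with 78.4 ± 19.3, bx14 with 63.7 ± 35.7 and bx1 with 40.7 ± 6.10 FPKM, again with overlap between neighbours. In WT shoots Zm00001d007718 at 1192 ± 350 and bx5 at 927 ± 159 FPKM led and overlapped. From bx3 at 570 ± 137 down through Zm00001d048634, bx4, bx1 and bx7 to bx2 at 288 ± 38.4 FPKM, each gene overlapped the next, and bx14 stood alone at the end. By mean, though not in every library, bx1 was thus the lowest member in KO1, whereas in WT it stood between bx4 and bx7. All 9 members together summed to 1912, 2094 and 2081 FPKM in KO1 and 4815, 4223 and 5221 FPKM in WT, or 0.348% ± 0.023 and 0.681% ± 0.063 of all FPKM (SD, n = 3 each, exact permutation p = 0.1).

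Within the genotypes, the members did not all depart from the group mean in the same direction. With 3 libraries each, no stable grouping of the members can be read from this. In KO1 replicate 2 all of bx1 to bx5 lay below the KO1 mean, with departures of -0.40 to -0.09 log2 units, and bx7 departed by -0.47 units. In the same library Zm00001d007718 was 0.55 and bx14 0.84 units above the KO1 mean. In WT replicate 3 bx7 departed by -0.87 units from the WT mean, and Zm00001d007718 was 0.46 and bx14 0.31 units above it. In both of these libraries bx7 was thus low and Zm00001d007718 and bx14 were high, and Zm00001d048634 was high as well, at 0.09 and 0.28 units in KO1 replicate 2 and WT replicate 3. The gene bx5 was low in both, at -0.30 and -0.26 units, while bx1 to bx4 were low in KO1 replicate 2 and high in WT replicate 3. The bx14 departure in WT rests on 10 reads. Both libraries are those that stood apart over all genes, and the part of this in the members' values was not tested. Without both, the log2 fold changes were -3.26, -1.60, -1.20, -1.27 and -2.09 for bx1 to bx5 in the order of their names, 0.02 for bx7 and 5.29 for bx14. Zm00001d007718 then passed the test (log2 fold change -1.14, limma adjusted p = 0.00162). These 2 libraries were left out because they stood furthest from their groups, which lowers the spread by construction. The median SE over all tested genes fell from 0.235 to 0.158, and calls rose from 7238 to 11952. The test without them therefore cannot decide whether Zm00001d007718 fell.

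**Figure D4:**
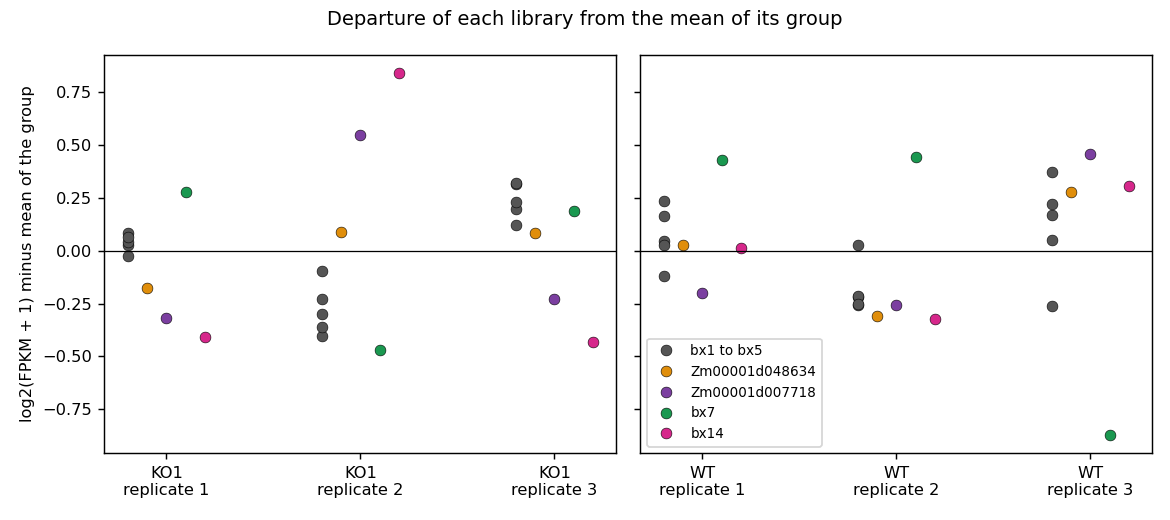
Departure of each library from the mean of its genotype, as log2(FPKM + 1), for KO1 (left panel) and WT (right panel). In KO1 replicate 2 and WT replicate 3 bx7 is below 0 (-0.467 and -0.873) while Zm00001d007718 and bx14 are above 0.

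The identifiers of bx1 to bx5 are close in number, and the reference table lists these genes near one another. The identifiers from Zm00001d048692 to Zm00001d048720 were therefore taken as their surroundings. Beside the 5 genes this stretch holds 20 identifiers with values, of which 4 were at 0 in all libraries and 9 were tested. Of the 9, 5 were called lower and 0 higher in KO1 by limma, with a median log2 fold change of -1.11. Over all genes tested 16.0% were called lower and 15.2% higher. At an unadjusted p below 0.05 the counts in the stretch were 6 lower and 0 higher. The share of all tested genes at this looser threshold is not given here, so these counts cannot be read against a background. Zm00001d048707, the single identifier with values numbered between bx5 and bx1, had 60.3, 76.5 and 82.1 FPKM in KO1 and 181, 147 and 146 FPKM in WT (log2 fold change -1.11 ± 0.21, limma adjusted p = 0.01). The reference table places bx8 in this same interval, so Zm00001d048707 may be bx8 itself rather than a neighbour of the pathway, in which case a glucosyltransferase gene was among those that fell. The identifiers alone do not settle this. Zm00001d048711, numbered just after bx2, had 16.6, 13 and 21.5 FPKM in KO1 and 74.0, 51.4 and 48.2 FPKM in WT (log2 fold change -1.71 ± 0.25, limma adjusted p = 0.0041). Both were picked out after their values were seen, and the sources used here pair neither with a name. Overlap between neighbouring genes, which could share reads, was not analysed here.

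**Figure D5:**
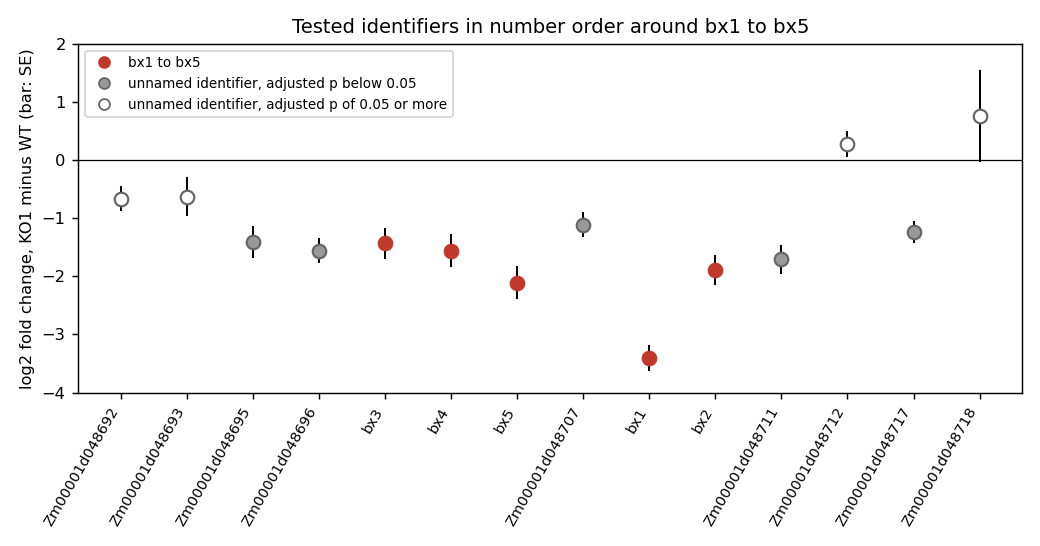
Log2 fold change, KO1 minus WT, with its standard error, for the 14 tested identifiers numbered around bx1 to bx5 (red), in number order. The 5 red points and 5 of the 9 unnamed identifiers (filled grey) passed the test, all below 0, and the open points did not pass.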

How the data were processed

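The authors deposited 1 table of FPKM values per library for 3 KO1 and 3 WT libraries (150 bp paired-end reads, per the labels). The submitters' processing notes name TopHat2, Cufflinks, Cuffdiff and B73 RefGen_v4; their versions, the annotation and the strandedness are not stated there. Reads per gene were worked back as whole numbers (within 0.05) for all 23232 tested genes; chance matches are possible, and the step was tested on simulated data. The 23232 genes reaching 1 FPKM in 3 or more libraries were fitted as log2(FPKM + 1) on genotype by limma (version 3.58.1, R 4.3.3), with robust empirical Bayes and a variance trend. Tests were two-sided, with p-values adjusted by Benjamini-Hochberg and a threshold of 0.05. Single shares and ratios were compared by exact two-sided permutation tests (scipy 1.17.1, Python 3.11.15). The labels do not say that replicates came from separate plants beyond calling them biological, so p-values measure the spread between these libraries. Counting intervals are exact binomial and cover counting error only. Members, lists and tests were chosen with earlier results of these data known. Named genes are the 10 listed members, with identifiers numbered within 10 of a member given unnamed, except 2 named after their values were seen. Alternatives covered pseudocount, filter, scaling, variance model, library weights, replicate block, voom and libraries left out. Other pathway genes, such as bx6, promoters and proteins were not analysed here.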

Additional observations from a re-analysis of the deposited data

How the results depend on the processing

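Over 18 alternatives, 156 of 162 member values kept their side of the threshold, and no called member changed direction. The exceptions were bx3 under a replicate block, Zm00001d048634 with library weights (limma adjusted p = 0.0119), and Zm00001d007718, which passed with library weights (0.000702), without trend and robust settings (0.039), without KO1 replicate 2 (0.0441) and without both libraries that stood apart (0.00162). Members called lower numbered 4 to 7 and members called higher 1. Log2 fold changes ranged from -3.51 to -3.12 for bx1, -2.04 to -1.60 for bx2, -1.56 to -1.08 for bx3, -1.72 to -1.23 for bx4, -2.24 to -1.86 for bx5 and 3.59 to 8.57 for bx14. With any single library omitted, 5 to 6 members were lower and 1 to 1 higher, the core median was -1.72 to -1.39 and the late median 2.75 to 3.01. The core median, -1.56 as reported, was -1.23 after quantile normalization, -1.29 with library weights, -1.27 without WT replicate 3 and KO1 replicate 2 and -1.89 for bx1 to bx5 alone, a choice made after seeing the data. The late median, the midpoint between bx7 and bx14 and so typical of neither, was 2.89. It was 3.95 with a pseudocount of 0.1, 1.91 with 5 and 4.4 with voom, which shrink or stretch weak genes by construction. It was 2.62 with library weights and 2.66 without both libraries, and the cause was not tested. Scaling by total reads moved the median of all genes to 0.20, where bx1 to bx5 had log2 fold changes of -3.19 to -1.22 and bx7 of 0.44. Same-numbered libraries departed from their groups with correlations of 0.15, -0.37 and -0.20. Departures within a group cancel out over its libraries, and both libraries that stood apart carry different numbers. These correlations therefore cannot decide whether the numbers pair the libraries. The replicate block left 4 members lower and 1 higher, with 4579 calls over all genes against 7238. All-gene calls were 14976 with library weights, 11952 without both libraries, and 4212 to 8614 when a single library was omitted.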

Other observations

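Around the other members, identifiers numbered within 10 of Zm00001d048634, bx7, Zm00001d007718 and bx14 were examined in the same way as those around bx1 to bx5. These 4 stretches held 68 further identifiers with values, of which 34 were tested, 5 were called higher and 3 lower in KO1 by limma, where 15.2% of all genes tested were called higher and 16.0% lower. The nearest numbered identifiers around bx14 had a median log2 fold change of -0.06 over 9 tested, while bx14 itself stood at 5.56. Of the 9, 1 was called higher, at 2.21, and 0 lower. At an unadjusted p below 0.05 the counts were 1 and 1, again without a share over all genes. A large rise on log2(FPKM + 1) was not particular to bx14, though the one that follows was smaller. Around Zm00001d048634, 1 identifier had means of 93.7 FPKM in KO1 and 1.54 FPKM in WT (log2 fold change 5.23, limma adjusted p = 0.00012). Around Zm00001d007718, 2 were called lower, at -2.83 and -2.92, and 1 higher, at 1.68. The values around Zm00001d048634 and Zm00001d007718 were picked out after they were seen. Around bx7 the median was -0.02 over 13 tested, with 2 called higher and 1 lower. Both called lower around Zm00001d007718 and the 1 called lower around bx7 reached 1 FPKM in WT libraries only. Of the 2 called higher around bx7, 1 reached it in KO1 libraries only. Like bx14, these entered the test through the group where they are high, and their calls are conditional on that. No identifier in these stretches has a name in the sources used here, and the difference between the stretches was not tested.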
